A study of Mus musculus with 6 samples.

Results

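A set of 9 genes that take up retinol, make and bind retinoic acid, degrade it and respond to it was examined in cultured neonatal mouse cochleae after hair cell (HC) damage. They were Stra6, Dhrs3, Aldh1a1, Aldh1a2, Aldh1a3, Crabp1, Crabp2, Cyp26b1 and Rarb, chosen by symbol, and all 9 were found among the 24421 gene symbols of the count table. RNA was sequenced from cochlear explants of wild-type mice at postnatal day 2, with 3 samples of control explants and 3 of explants given neomycin. Each sample pooled 6 to 8 cochleae, dissected free of modiolus, tectorial membrane and strial anlage. The explants were kept for 12 h in culture, the neomycin group received 1 mM neomycin, an aminoglycoside toxic to HCs, for 6 h, and culture went on for 5 days with 10 μM EdU, a thymidine analogue. The protocol text in the labels gives the neomycin step for all 6 samples alike, so the groups rest on the treatment label. Total counts ran from 50471116 to 66068108 per sample. Levels are given as CPM, counts scaled to a common library size by the TMM method, fold changes are neomycin against control on the log2 scale with their standard error, and adjusted p-values come from edgeR's quasi-likelihood test over the 15988 genes with enough counts. Genes were called higher or lower when the change exceeded 1.5-fold and the adjusted p-value was under 0.05. With 3 samples per group, p-values set the group difference against a spread estimated from these samples, with information shared over all genes tested. Nothing in the labels ties the samples to separate litters.

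Retinoic acid is made from vitamin A in steps. Retinol enters cells, in some tissues through the receptor Stra6, is oxidised reversibly to retinaldehyde, and is then oxidised irreversibly to retinoic acid by the Aldh1a enzymes. Crabp1 and Crabp2 carry retinoic acid in the cytoplasm, Cyp26 enzymes hydroxylate it for removal, and pairs of RAR and RXR receptors bind DNA and turn its presence into transcription. In the developing inner ear, local synthesis and local degradation of retinoic acid set up regions of high and low signal, and Rarb, Dhrs3 and the Cyp26 genes are known to be induced by retinoic acid in many tissues.

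RAR and RXR pairs bind direct repeats of a half-site, here taken as AGGTCA, with G allowed at the first and T at the third base, and 5 or 2 bases between the repeats, on either strand. Of the 250-base promoters of RefSeq (GRCm38.p6), 7 of the 9 genes had an entry, with 13 promoters in all, and 1 of the 13 held such a repeat. It lay 53 to 37 bases before a start of Rarb and had 5 bases between the half-sites. Repeats with 5 bases between were in 29 of all 32851 promoters (0.0883%), and repeats with 5 or 2 bases in 86 (0.262%). The Rarb repeat is shown because it belongs to the receptor gene of the set, and that of Cyp26a1, the relative of Cyp26b1, for comparison; the capitals mark the half-sites, which the 6 bases around each repeat flank. The Rarb window lies on the minus strand at chr14:16575507-16575535, inside the first exon, as 5′ UTR, of 2 transcripts in the GENCODE annotation. The Cyp26a1 window is written on the minus strand at chr19:37697770-37697798, 32 to 16 bases before the start of this plus-strand gene.
Rarb: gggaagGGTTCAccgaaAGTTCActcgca
Cyp26a1: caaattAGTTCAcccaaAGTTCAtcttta
The promoters of the genes called higher and lower, Crabp1 and Cyp26b1, held neither a repeat nor a single half-site. At least 1 half-site was in 38.6% of all promoters, so most held none. Among the 13 promoters, only that of Rarb and 1 of Aldh1a1 held any, so the absence is not particular to the called genes. The count of single half-sites was added after the values were seen. A match or its absence describes the letters of this window and no more. The bases directly before the annotated first exon are given for both, with no capitals because no half-site was found: 250 bases of Crabp1 at chr9:54764498-54764747 on the plus strand, with a GC content of 63.6%, and 152 bases of Cyp26b1 at chr6:84593909-84594060 on the minus strand, with a GC content of 65.1%.
Crabp1: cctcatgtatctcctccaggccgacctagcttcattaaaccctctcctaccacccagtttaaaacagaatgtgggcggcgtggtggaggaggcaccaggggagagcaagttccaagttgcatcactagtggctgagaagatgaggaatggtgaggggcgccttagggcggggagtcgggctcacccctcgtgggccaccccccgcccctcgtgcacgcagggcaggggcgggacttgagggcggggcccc
Cyp26b1: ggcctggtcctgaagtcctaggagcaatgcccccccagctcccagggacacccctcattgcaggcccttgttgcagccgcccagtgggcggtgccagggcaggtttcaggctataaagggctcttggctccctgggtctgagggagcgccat

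After neomycin, the retinoic acid binding protein gene Crabp1 was higher and the retinoic acid degrading gene Cyp26b1 was lower, and these were the only 2 of the 9 called. Aldh1a2 rose and Stra6 fell with smaller changes that passed the adjusted p-value but not the fold threshold. Aldh1a1, Aldh1a3, Crabp2, Dhrs3 and Rarb did not pass. One of 9 genes called higher stands beside 2.24% of all genes tested, and 1 called lower beside 6.60%, or 8.84% in either direction. Without the fold threshold, 4 of 9 passed, 2 in each direction, beside 29.0% of all genes (12.9% higher and 16.1% lower). The groups did not overlap for 5 of 9, beside 43.5% of all genes, and neither count is read as a result about the set. The median log2 fold change of the 9 was -0.11, against -0.00408 over all genes tested. In bulk RNA of whole explants, fewer cells of a type and less RNA per cell cannot be told apart.

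**Figure D1:**
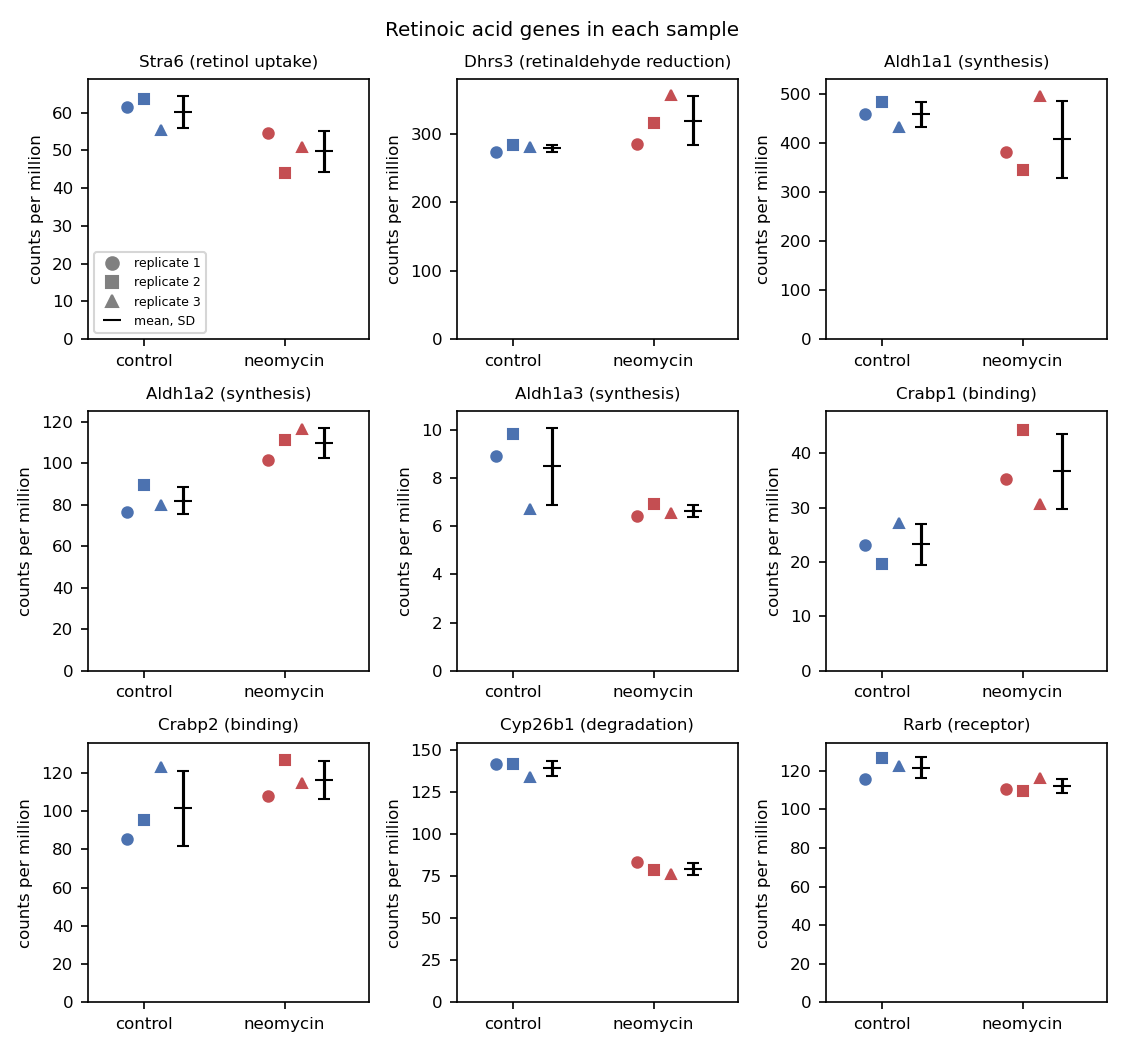
CPM (vertical axes, from 0) of the 9 genes in each of the 3 control (blue) and 3 neomycin (red) samples, with the group mean and SD in black. The groups are apart for Crabp1, Aldh1a2, Cyp26b1, Stra6 and Dhrs3, most clearly for Cyp26b1, whose neomycin samples lie between 76.5 and 83.5 CPM and whose control samples lie between 134 and 142 CPM.

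**Figure D2:**
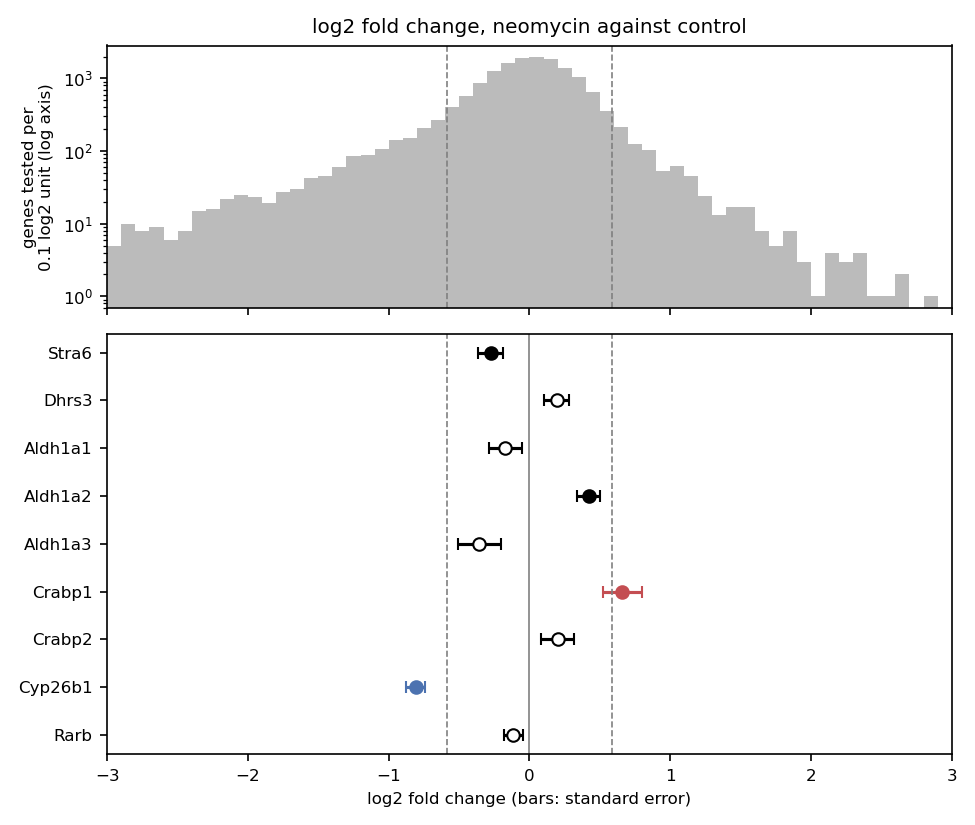
The upper panel counts all genes tested by log2 fold change in steps of 0.1 (log axis; 33 genes beyond 3 in either direction are not drawn), and the lower panel gives the log2 fold change and standard error of each of the 9 genes. Filled points passed an adjusted p-value of 0.05, dashed lines mark a fold change of 1.5, and only Crabp1 (0.66) and Cyp26b1 (-0.81) lie outside them.

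Cyp26b1, the enzyme that inactivates retinoic acid by hydroxylation, had the largest change of the 9. Its level was 142, 142 and 134 CPM in control replicates 1, 2 and 3 and 83.5, 78.8 and 76.5 CPM in neomycin replicates 1, 2 and 3. Every neomycin sample lay well below every control sample, and both groups were narrow. The mean was 139 ± 4.41 CPM in control and 79.6 ± 3.53 CPM after neomycin (SD, n = 3 each), 1.75-fold higher in control. The log2 fold change was -0.81 ± 0.07 (SE; edgeR adjusted p = 1.02e-05). Among all genes tested, 6.02% had a log2 fold change at or below that of Cyp26b1. The call held in all 16 alternatives, with log2 fold changes from -0.88 to -0.74. Cyp26b1 lies on the minus strand at chr6:84571414-84593908 and overlaps no other annotated gene. The other Cyp26 genes had few counts: Cyp26a1 had 2.31 ± 0.658 CPM in control and 2.18 ± 0.322 CPM after neomycin (adjusted p = 0.854), and Cyp26c1 had too few counts to be tested.

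Crabp1, which binds retinoic acid in the cytoplasm, was the gene called higher. Its level was 23.2, 19.6 and 27.1 CPM in the controls, against 35.3, 44.3 and 30.7 CPM in the neomycin group. The groups did not overlap, but the highest control and the lowest neomycin sample, both replicate 3, were close. The mean rose 1.58-fold from 23.3 ± 3.76 to 36.8 ± 6.90 CPM, and the log2 fold change was 0.66 ± 0.14 (edgeR adjusted p = 0.00465). Leaving out control replicate 2 (0.55, adjusted p = 0.0281) or neomycin replicate 2 (0.50, adjusted p = 0.0298) brought the change below 1.5-fold and ended the call. It was also lost when the trend of each library's log2 ratio on gene length was removed, which left a log2 fold change of 0.31 (adjusted p = 0.104); Crabp1, at chr9:54764748-54773110 on the plus strand, has only 0.802 kb of exon.

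Crabp2, the related protein that delivers retinoic acid to its receptors in the nucleus, did not pass the test. It had 85.6, 95.3 and 123 CPM in control replicates 1 to 3 and 108, 127 and 114 CPM in neomycin replicates 1 to 3. Control replicate 3 lay within the neomycin range and the other control samples below it. The log2 fold change was 0.20 ± 0.12 (edgeR adjusted p = 0.217), from a mean of 101 ± 19.5 to 116 ± 9.79 CPM. It was 0.38 without control replicate 3 (adjusted p = 0.00728) and turned to -0.06 with the length correction (adjusted p = 0.673; exon length 1.32 kb). Levels per kilobase divide by all annotated exons of a gene joined, which can be longer than its mRNA. The trend of each library on gene length was not removed from them, nor from the sums and shares built on them. On this scale, the summed level of both binding proteins was 106 ± 18.5 CPM per kb in control and 134 ± 15.1 after neomycin. Control replicate 3 (127) lay within the neomycin range of 125 to 151. The share of Crabp1 in that sum was 30.8%, 25.3% and 26.6% in control, against 35.1%, 36.5% and 30.6% after neomycin. Control replicate 1 and neomycin replicate 3 overlapped in this share, and Crabp2 remained the larger part in every sample.

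The 3 retinaldehyde dehydrogenases that make retinoic acid did not move together. Aldh1a2, the main enzyme of embryonic retinoic acid synthesis, had 76.6, 89.4 and 79.8 CPM in the controls and 102, 111 and 116 CPM in the neomycin group. All neomycin samples were higher than all control samples. The mean rose 1.34-fold from 81.9 ± 6.65 to 110 ± 7.37 CPM, and the log2 fold change was 0.42 ± 0.08 (edgeR adjusted p = 0.00281). The adjusted p-value of Aldh1a2 stayed under 0.05 in all 15 alternatives that test for any change, which leaves out glmTreat, a test against a change of 1.5-fold, with log2 fold changes from 0.28, with the length correction, to 0.49.

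Aldh1a1, a retinaldehyde dehydrogenase with further aldehyde substrates, did not pass. It had 460, 484 and 434 CPM in the control group, against 382, 345 and 497 CPM with neomycin. Neomycin replicates 1 and 2 were below the control range and replicate 3 above it. The log2 fold change was -0.17 ± 0.12 (edgeR adjusted p = 0.297) and became -0.34 without neomycin replicate 3 (adjusted p = 0.0351) and -0.06 without neomycin replicate 2. Aldh1a7, a close relative that shares 3.06% of the 50-base stretches of the Aldh1a1 transcripts, had 26.3 ± 6.31 CPM in control and 34.6 ± 1.73 CPM after neomycin, 0.39 ± 0.13 on the log2 scale (adjusted p = 0.0445), which the length correction took to 0.24 (adjusted p = 0.152). Reads from the shared stretches could be counted for either.

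Aldh1a3, the third of these enzymes, had 8.91, 9.83 and 6.73 CPM in control and 6.42, 6.93 and 6.55 CPM after neomycin. Control replicate 3 lay within the neomycin range and the other control samples above it. Its log2 fold change was -0.36 ± 0.15 (edgeR adjusted p = 0.0965), and -0.49 without control replicate 3 (adjusted p = 0.0171).

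On the scale of CPM per kilobase of exon, the summed level of the 3 Aldh1a genes was 129, 140 and 125 in control, against 124, 120 and 153 after neomycin. The groups overlapped, and the means of 131 ± 7.78 and 132 ± 18.1 differed by 1.10% of the control mean. The share of Aldh1a2 in this sum was 26.3%, 28.3% and 28.3% in control, against 36.3%, 40.7% and 33.5% after neomycin, without overlap. The share of Aldh1a1 went from a mean of 71.0% to 62.1%, and that of Aldh1a3 from 1.40% to 1.10%. These shares are given as a description, with no test. They depend on the joined exon lengths used, 4.94 kb from 6 transcripts for Aldh1a1 and 2.26 kb from 1 for Aldh1a2. The trend on gene length was not removed from these shares. With that correction the log2 fold change was 0.28 for Aldh1a2 and -0.12 for Aldh1a1.

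**Figure D3:**
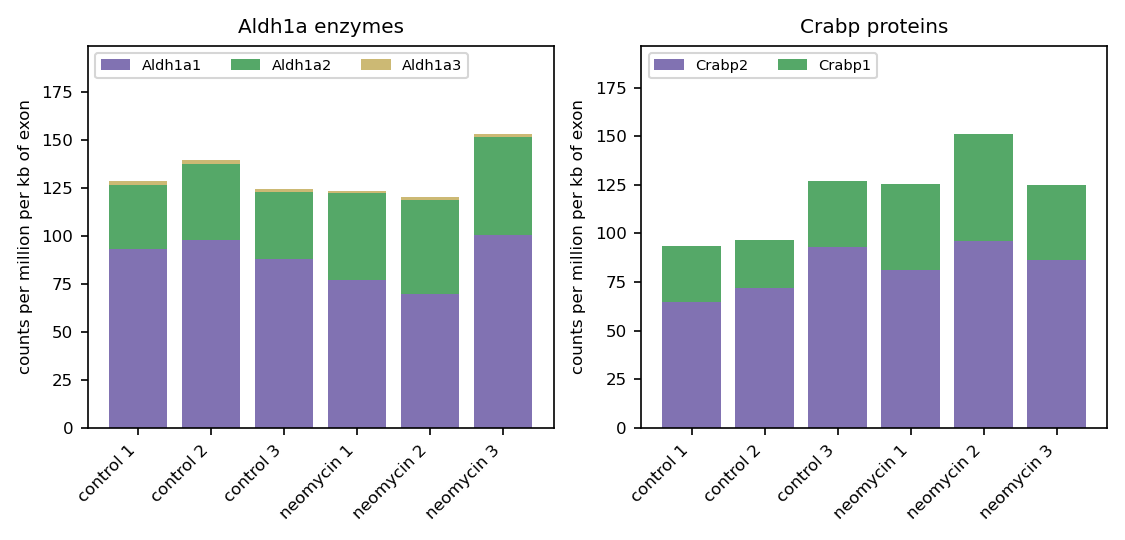
Level per kilobase of exon (CPM per kb, stacked bars from 0) of the Aldh1a genes and of Crabp1 and Crabp2 in each of the 6 samples. The Aldh1a bars reach 125 to 140 in control and 120 to 153 after neomycin, while the Aldh1a2 segment is larger in the neomycin samples.

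Stra6, the membrane receptor that takes up retinol from its plasma carrier, had 61.6, 63.7 and 55.5 CPM in control replicates 1 to 3 and 54.6, 43.9 and 51.0 CPM in neomycin replicates 1 to 3. The groups did not overlap, but control replicate 3 and neomycin replicate 1 differed by little. The mean fell from 60.3 ± 4.25 to 49.8 ± 5.43 CPM, and the log2 fold change was -0.27 ± 0.09 (edgeR adjusted p = 0.0372). This passed in 9 of these 15 alternatives and was lost with the length correction (-0.18, adjusted p = 0.113) and when any of 4 libraries was left out: neomycin replicate 2 (-0.19, adjusted p = 0.183) or 3 (-0.29, adjusted p = 0.0733), or control replicate 1 (-0.25, adjusted p = 0.0881) or 2 (-0.23, adjusted p = 0.147).

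Dhrs3, which reduces retinaldehyde back to retinol and so limits synthesis, had 273, 283 and 281 CPM in the controls and 284, 316 and 357 CPM in the neomycin group. The control samples lay close together, and neomycin replicate 1 was only just above them. The log2 fold change was 0.19 ± 0.09 (edgeR adjusted p = 0.116), from a mean of 279 ± 5.10 to 319 ± 36.3 CPM. Leaving out neomycin replicate 1 gave 0.27 (adjusted p = 0.0382), and leaving out neomycin replicate 3 gave 0.11 (adjusted p = 0.448).

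Rarb, the receptor gene that carries the repeat shown above, had 116, 127 and 122 CPM in the control group, against 111, 110 and 116 CPM with neomycin. Neomycin replicate 3 and control replicate 1 overlapped. Rarb had a log2 fold change of -0.11 ± 0.07 (edgeR adjusted p = 0.233), and no alternative fit gave an adjusted p-value under 0.05. Rarb spans chr14:16430839-16819156 on the minus strand, and 38.4% of its exon bases lie opposite exons of Top2b and Gm48162, so its counts are uncertain because the strand setting of the counting is not given in the sources used here.

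Ordered by level per kilobase of exon, Dhrs3 led in both groups, at 95.3 ± 1.74 CPM per kb in control and 109 ± 12.4 after neomycin. The order depends on the joined exon lengths used. In control, Aldh1a1 (93.0) and Crabp2 (76.7) followed, and these 3 overlapped from neighbour to neighbour. Aldh1a2 (36.2), Crabp1 (29.1) and Cyp26b1 (26.0) came next and also overlapped from neighbour to neighbour, whereas Rarb (23.1), Stra6 (10.3) and Aldh1a3 (1.84) were each separate from the gene above. After neomycin the order was Dhrs3, Crabp2 (88.0), Aldh1a1 (82.6), Aldh1a2 (48.4), Crabp1 (45.8), Rarb (21.3), Cyp26b1 (14.9), Stra6 (8.55) and Aldh1a3 (1.44), with overlap between neighbours only for Crabp2 with Aldh1a1 and for Aldh1a2 with Crabp1. Cyp26b1 was thus above Rarb in every control sample and below it in every neomycin sample. This comparison rests on the Rarb counts, which are uncertain because of the genes on the opposite strand. The per-kilobase level of Crabp1 was above that of Cyp26b1 in every neomycin sample, whereas the ranges of both overlapped in control.

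Of 77 other genes of retinoid metabolism and signalling, 53 were tested, and 2 were called higher and 2 lower, 7.55% in all beside 8.84% of all genes tested. Without the fold threshold 12 were higher and 9 lower, and the median log2 fold change was 0.06. Those that passed were 39.6% of those tested, beside 29.0% of all genes, and no test of the lists as sets was made. With the length correction 8 were higher and 6 lower, 26.4% beside 23.8% of all genes. Rbp5 was absent from the table under this symbol.

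Among genes of retinol binding and uptake, Rbp7, a cellular retinol binding protein gene, had 0.898, 0.633 and 1.53 CPM in control and 3.07, 2.86 and 2.23 CPM after neomycin. It was called higher, with a log2 fold change of 1.41 ± 0.32 (edgeR adjusted p = 0.00653), at a low level and with no overlap. The call was lost under glmTreat (adjusted p = 0.104) and held in the other 15 alternatives. Of the 8 genes tested in this list, 2 passed the adjusted p-value, both higher, beside 12.9% of all genes tested that passed higher.

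Among the storage and cleavage genes, 2 of 6 tested passed the adjusted p-value, both higher and neither called. Over all genes tested, 12.9% passed higher. With the length correction 1 of the 6 passed higher (16.7%), beside 11.5% of all genes. Rlbp1, a retinaldehyde binding protein gene and the highest in CPM of the list, had 70.7, 71.9 and 84.0 CPM in the controls and 106, 99.6 and 99.5 CPM in the neomycin group. The groups were apart, with a log2 fold change of 0.43 ± 0.08 (edgeR adjusted p = 0.00233).

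Among retinol dehydrogenases, 6 of 13 tested passed higher and 1 lower, beside 12.9% and 16.1% of all genes tested. With the length correction 2 passed higher and 2 lower (15.4% each), beside 11.5% and 12.3% of all genes. Rdh12, a reductase of retinaldehyde and other aldehydes known from photoreceptors, had 15.9, 17.4 and 20.3 CPM in the control group, against 7.74, 7.27 and 6.81 CPM with neomycin. It was called lower, with a log2 fold change of -1.29 ± 0.12 (edgeR adjusted p = 1.9e-05) and groups far apart. Sdr16c5, which oxidises retinol, went the other way, from 4.32, 4.87 and 4.59 to 6.55, 5.58 and 9.42 CPM. It was called higher at a log2 fold change of 0.65 ± 0.19 (adjusted p = 0.0232), and the call was lost in 7 of 16 alternatives, the length correction among them (0.41, adjusted p = 0.113). Adh5, the highest in CPM of the list and better known for oxidising glutathione-bound formaldehyde, rose from 125 ± 6.51 to 155 ± 9.22 CPM (0.31 ± 0.07, adjusted p = 0.00861). Rdh10, the enzyme most tied to embryonic retinol oxidation, had 30.4 ± 1.87 CPM in control and 27.6 ± 2.82 CPM after neomycin (adjusted p = 0.277) and was picked for naming after its values were seen.

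Among the receptors and their partners, 6 of 12 passed the adjusted p-value, all lower, beside 16.1% of all genes tested, and 11 of 12 log2 fold changes were below 0. Nrip1, a corepressor of nuclear receptors, was the 1 called, with 17.5, 17.3 and 10.7 CPM in control and 6.06, 4.76 and 4.62 CPM after neomycin. Control replicate 3 was the nearest to the neomycin samples but still above them, and the log2 fold change was -1.56 ± 0.19 (edgeR adjusted p = 0.000126). Ncor1, the corepressor that unliganded RARs recruit and the highest in CPM of the list, fell from 133 ± 9.26 to 102 ± 3.95 CPM (-0.39 ± 0.07, adjusted p = 0.00273); with the length correction the log2 fold change was -0.15 (adjusted p = 0.0718). Rxra, Ncoa1 and Ncoa3 also passed lower and were named after their values were seen, with log2 fold changes from -0.31 to -0.28. The genes of this list had a median exon length of 6.68 kb against 4.26 kb over all genes tested, and with the length correction 2 of 12 passed lower (16.7%), Nrip1 (-1.33) and Rxra (-0.23), near the 12.3% of all genes, with 9 of 12 below 0.

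Of 24 genes known to respond to retinoic acid, 12 had enough counts and none was called. Of the 12, 1 passed the adjusted p-value higher and 2 lower, beside 12.9% and 16.1% of all genes tested. Those not tested were mostly Hox genes, among them Hoxb1. Tgm2, a transglutaminase gene and the highest in CPM of the list, had 360, 421 and 408 CPM in control replicates 1 to 3 and 274, 307 and 321 CPM in neomycin replicates 1 to 3. It fell without overlap, with a log2 fold change of -0.40 ± 0.09 (edgeR adjusted p = 0.00633). The others were Bhlhe40, lower at -0.53 (adjusted p = 0.00308), and Rarres2, higher at 0.36 (adjusted p = 0.0311), both named after their values were seen. With the length correction 3 of the 12 passed higher and 2 lower, beside 11.5% and 12.3% of all genes. Rarres2 no longer passed (0.27, adjusted p = 0.0691). Nr2f2 (0.35, adjusted p = 0.00349), Nr2f1 (0.25, adjusted p = 0.0148) and Meis2 (0.44, adjusted p = 0.0490) then passed higher, likewise named after the fact. The median of the list with this correction was 0.26. Of the 9 genes, Rarb, Dhrs3 and Cyp26b1, named above as induced by retinoic acid, had log2 fold changes of -0.11, 0.19 and -0.81. The rest of the 9 were not sorted by whether they respond to it.

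**Figure D4:**
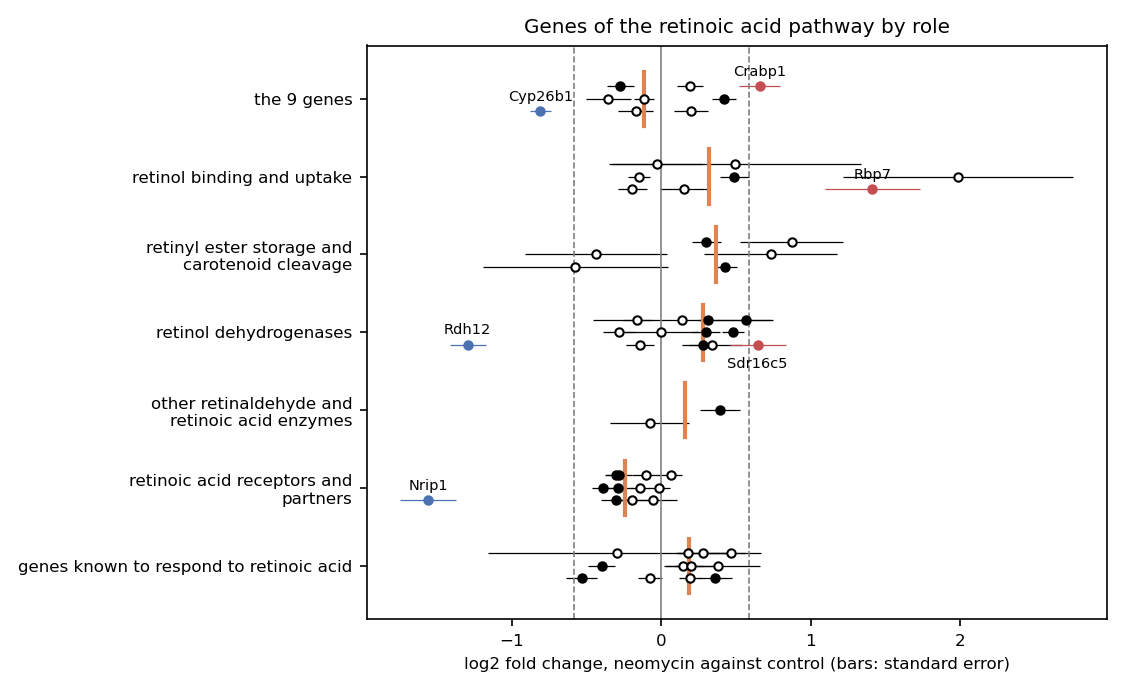
log2 fold change with standard error of each gene tested, for the 9 genes and 6 lists of the pathway, with an orange bar at the median of each list. Filled points passed an adjusted p-value of 0.05, and coloured and named points were called. In the receptor list 11 of 12 points lie below 0, of which 6 passed, against 9 and 2 with the length correction.

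Markers of several cell types differed between the groups. The counts of called markers stand beside 2.24% of all genes tested called higher and 6.60% called lower. All 16 HC markers had counts, 14 of them were called lower after neomycin, and their summed level was 817 to 948 CPM in control and 249 to 309 CPM after neomycin. Of 15 supporting cell markers 1 was called higher and 2 lower, and their summed level was 6146 to 7645 CPM in control and 8458 to 11308 CPM after neomycin. Tectb alone, which was called higher, made up 59.4% to 72.1% of this sum. Without Tectb the sum was 2420 to 2803 CPM in control and 3083 to 3213 CPM after neomycin, without overlap. Over the 15 markers the median log2 fold change was -0.05, with 8 below 0. Of 14 mesenchymal markers 3 were called higher and 1 lower, with sums of 6867 to 7573 and 8154 to 8235 CPM. Of 10 endothelial markers 7 were called lower, and of 10 macrophage markers 4 were called higher, with macrophage sums of 83.4 to 105 CPM in control and 116 to 146 CPM after neomycin. The endothelial sums overlapped, at 312 to 354 and 298 to 351 CPM, but Emcn alone, which was not called, made up 73.0% to 84.8% of them. Without Emcn they were 74.0 to 95.5 CPM in control and 51.1 to 53.3 CPM after neomycin, and the median log2 fold change of the 10 markers was -1.94. Markers of Schwann cells, melanocytes, strial marginal cells and the cochlear roof were also present. Of these, 1 of 10 (Erbb3, lower), 0 of 5, 0 of 6 and 0 of 6 tested were called, in that order. Markers of neurons were present too, with 4 of 11 tested called lower. Neurod1 alone of the neuron markers was at 3 counts or fewer in every sample. The part of these shifts in the levels of Cyp26b1, Crabp1, Aldh1a2 and Stra6 was not tested.

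The genes most like the called ones over the 6 samples were found by the root mean square distance of log2 CPM, each centred on its own mean. For Cyp26b1 these were Lrrc7 (distance 0.0502, Pearson's r 0.995 as a description over 6 samples) and Egfl6 (0.0510, r 0.993). Egfl6, an extracellular matrix protein gene, had 25.6 CPM in control and 14.4 CPM after neomycin, and its log2 fold change was -0.83 ± 0.09 (edgeR adjusted p = 5.78e-05). Lrrc7, a postsynaptic density protein gene, had few counts, at 0.366 and 0.205 CPM and did not pass (adjusted p = 0.201). For Crabp1 the nearest were the uncharacterised D130020L05Rik (distance 0.0668, r 0.987; 3.78 to 6.21 CPM, adjusted p = 0.0108) and Gm16712 (0.0721, r 0.984; 0.553 to 0.851 CPM, adjusted p = 0.220). The distances share the group difference of the called genes, so they say nothing of joint control.

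**Figure D5:**
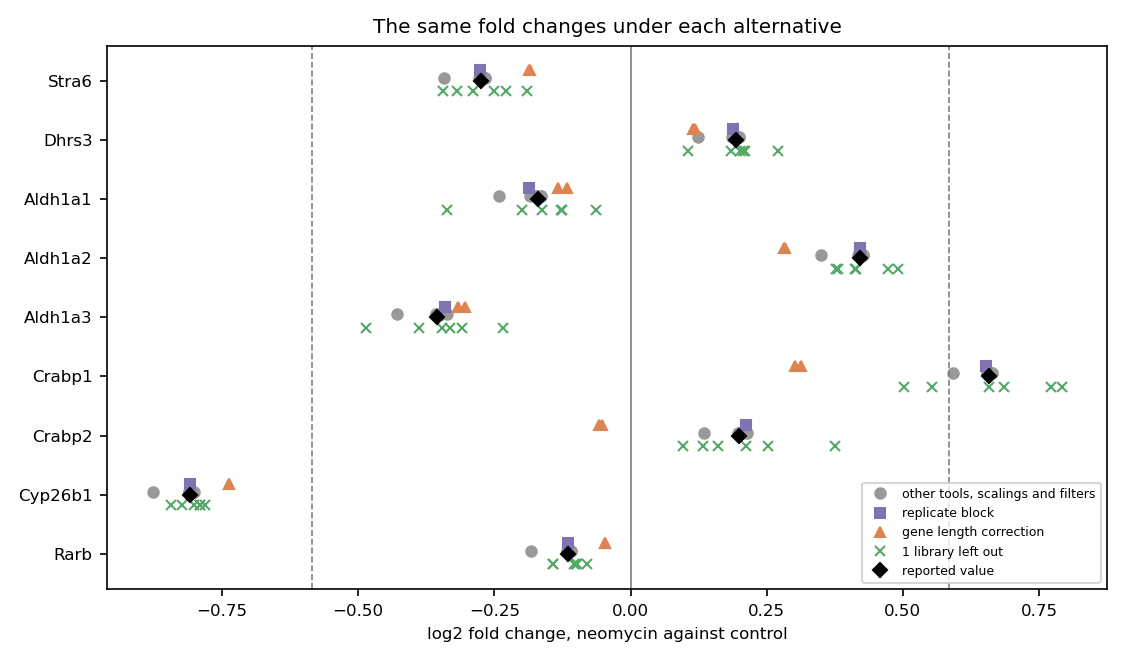
log2 fold change of the 9 genes (horizontal axis) as reported (black diamonds) and under each alternative, with dashed lines at a fold change of 1.5. Cyp26b1 stays between -0.88 and -0.74 and Aldh1a2 between 0.28 and 0.49, whereas Crabp1 moves to 0.31 and Crabp2 to -0.06 with the gene length correction.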

How the data were processed

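RNA-seq of 3 control and 3 neomycin samples was analysed. The authors called bases with CASAVA 1.8, trimmed reads with Trimmomatic 0.23, aligned them to mm10 with HISAT2 and counted them per gene symbol with HTSeq, and deposited raw counts without normalization. The strand setting and the handling of reads with several matches are not given in the sources used here. Every column belonged to a mapped sample.

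Counts were scaled by TMM, filtered with filterByExpr and tested without covariates by edgeR 4.0.16 (glmQLFTest, R 4.3.3) with Benjamini-Hochberg adjustment over 15988 genes. Exon lengths, which join the exons of all annotated transcripts of a gene, and coordinates are from GENCODE M21. It held 23376 of the symbols directly and 669 by a synonym. Between replicates of a group the chi-square per gene was 13.7 to 46.7, above sampling noise. Counts limit the precision little: sampling error was at most 5.42% of a member's count in any sample, and it covers counting error only. The code was tested on simulated data.

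The genes and lists were chosen with earlier results of these data known. Named were the 9 genes, called genes of the pathway lists, the gene with the highest mean CPM of each list (1 such gene is not reported here), and the 2 nearest genes of each called member by root mean square distance of log2 CPM (prior count 2). Alternatives were DESeq2 1.42.0, limma-voom 3.58.1, other scalings and filters (at least 1 CPM in 3 samples), glmTreat, a block for the replicate number, each library left out in turn, and removal of the trend on gene length (lowess, span 0.3; lengths for 99.2% of tested genes). Applying them to single pathway genes, the length correction to the pathway lists, and marker sums without their leading gene, were added after seeing the data. Figures used matplotlib 3.10.9 under Python 3.11.15.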

Additional observations from a re-analysis of the deposited data

How the results depend on the processing

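In the reported fit 2 of the 9 genes were called, and 1, Cyp26b1, under glmTreat, with the gene length correction, and with the replicate block and the length correction together. Leaving out 1 library gave 1 to 2 called, and Crabp1 was the gene lost, without control replicate 2 or neomycin replicate 2. Genes with an adjusted p-value under 0.05 numbered 4 as reported, 2 (Aldh1a2 and Cyp26b1) with the length correction and with the block and length correction together, and 3 to 6 with 1 library left out. The other pathway genes called fell from 4 to 2 under glmTreat, which lost Rbp7 and Sdr16c5, and all genes called from 1413 to 380, with 1037 to 1672 when 1 library was left out. Fewer calls under glmTreat follow from its null hypothesis of a change within 1.5-fold. The log2 fold change of Crabp2 turned to -0.0579 with the length correction and -0.0534 with the block added; the cause was not tested. Of the calls in either direction, 25.3% were higher as reported, 15.7% with library totals and 11.1% under glmTreat. No scaling moved the median of all genes by more than 0.069. Deviations of same-numbered samples correlated at 0.165, 0.0264 and 0.0949, against -0.129 to 0.0325 between samples of different number. The labels do not say whether the numbers mark pairs, and these values do not decide it. The main fit therefore took no pairs, and the block is given as an alternative. The replicate block left 2 of the 9 genes called, gave 5 in place of 4 under an adjusted p-value of 0.05, with Dhrs3 added (0.19, adjusted p = 0.045), and called 1465 genes in all. Over all genes, 6014 had an adjusted p-value under 0.05 with the block, in place of 4629. Control replicate 2 correlated best with neomycin replicate 3, by a small margin (0.0325, against 0.0264 with neomycin replicate 2).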

Other observations

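The spread within a group differed between the 9 genes and between the groups. The coefficient of variation of CPM was 1.83% in control and 11.4% after neomycin for Dhrs3, and 5.49% and 19.4% for Aldh1a1, and for both the highest of all 6 samples was neomycin replicate 3. Crabp2 went the other way, from 19.3% to 8.42%. Crabp1 varied by 16.1% in control and 18.8% after neomycin, with neomycin replicate 2 highest, and Cyp26b1 by 3.16% and 4.43%. With 3 samples per group these spreads were not compared by a test.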
